A study of Mus musculus with 2 samples.

Results

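The genes described here encode the shared body of the 26S proteasome, the protease of nucleus and cytosol that degrades proteins tagged with ubiquitin. They were taken as all genes whose symbol is Psma, Psmc or Psmd followed by a number only, together with Psmb1 to Psmb4. This rule found 32 of the 32285 gene rows. Among them were 7 genes of the alpha rings (Psma1 to Psma7), 4 of the non-catalytic beta subunits (Psmb1 to Psmb4) and 6 of the ATPases of the base of the cap (Psmc1 to Psmc6). A further 3 encode other base subunits (Psmd1, Psmd2 and Psmd4) and 8 encode lid subunits (Psmd3, Psmd6, Psmd7, Psmd8, Psmd11, Psmd12, Psmd13 and Psmd14). The word core fits 28 of the 32 closely. Psmd5, Psmd9 and Psmd10 encode chaperones that help to assemble the base and are not part of the finished particle, and Psma8 encodes a form of an alpha subunit known from male germ cells.

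The libraries came from CT26 tumours, a mouse colon carcinoma line, in mice of the inbred strain BALB/c. By genotype label the tumours were mock or PTIR1-expressing. The series title calls PTIR1 a suppressor of the immunoproteasome. Each kind of tumour gave 1 library of droplet-based 3′ single-cell RNA sequencing. The labels give no age, sex, number of mice or time after transplantation, and do not say how PTIR1 was introduced. They name infiltrating lymphocytes as the source, but the libraries also held tumour cells, myeloid cells and fibroblasts. With 1 library per group there was no replicate and no test. Every interval below is a 95% interval that reflects counting and nothing else: of UMIs or, for a share of cells, of cells.

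There were 95166611 UMIs (unique molecular identifiers, each marking a captured transcript) from 10833 mock cells and 98540561 from 9006 PTIR1 cells. After filtering, 8632 and 7109 cells were kept, with a median of 3170 and 6651 UMIs, and marker gates placed 35.2% and 40.2% of them in a class. The libraries shared 30 barcodes. Classes compared between the libraries had at least 50 cells in each. The mock library gave 163 CT26 tumour cells, 1431 macrophages, 480 NK cells, 301 B cells, 236 T cells, 107 dendritic cells and 132 neutrophils. The PTIR1 library gave 132, 881, 565, 594, 110, 100 and 204 of these in the same order. Median depth was 72050 UMIs per mock and 47120 per PTIR1 tumour cell, and 14210 and 14050 per macrophage. Of 9 tumour cell markers, Krt7, Krt19, Epcam and Cldn4 had no UMI in the mock tumour cells. The mock class thus rested on Krt18, Tm4sf1, Krt8, Areg and Hmga2. In the PTIR1 tumour cells 8 of the 9 had a UMI, and only Cldn4 had none. The macrophage markers include the complement genes C1qa, C1qb and C1qc.

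The proteasome consists of a barrel, the 20S core, and a cap, the 19S regulator. In the core, rings of alpha subunits form the gate and rings of beta subunits hold the catalytic sites. In the cap, the base unfolds substrates with its ATPases, whereas the lid and its neighbours bind and remove ubiquitin. The alpha and beta subunits each occur in equal number in a particle, and so do the ATPases among themselves. Cells exposed to interferon replace the catalytic beta subunits Psmb5, Psmb6 and Psmb7 by Psmb8, Psmb9 and Psmb10, which gives the immunoproteasome, while the alpha rings, Psmb1 to Psmb4 and the cap are shared by both forms. When proteasome activity is low, the transcription factor encoded by Nfe2l1 is known to raise proteasome genes through an antioxidant response-like element in their promoters.

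The rule's genes lie on 16 chromosomes, and all 32 gene identifiers had the same symbol in the GENCODE vM21 annotation of mm10. RefSeq promoters, from 250 bases before to 50 after the gene start, were at hand for 26 of the 32 genes in the assembly GRCm38.p6. The element TGACNNNGC, searched on both strands, occurred in 3 of the 26 (11.5%; Psmc6, Psmd9 and Psmd12) and in 14.0% of all genes with a promoter. CCAAT, another common promoter element, occurred in 11 of the 26 (42.3%) and in 41.1% of all genes. Both shares lay near those of all genes, and a match is a description of letters, not a binding site. The stretches of Psmc6 and Psmd9 are shown because they, with the bases beside the match, lie wholly within the 250 bases before the gene start. That of Psmd12 does not. Capitals mark the match, and both are written on the plus strand. For Psmc6 the match is on the minus strand, 227 bases before the RefSeq gene start. For Psmd9 it is on the plus strand, 31 bases before the RefSeq gene start. The GENCODE span of Psmd9 begins at position 123169413 of chromosome 5, so the Psmd9 stretch lies inside that span, not before it.
Psmc6, chr14:45329581-45329621: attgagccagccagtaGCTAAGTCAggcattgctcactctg
Psmd9, chr5:123228143-123228183: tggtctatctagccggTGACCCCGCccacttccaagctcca

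The first comparison asked how much of each cell class's RNA came from these genes. Levels are given as CPM, the UMIs of a gene among 1000000 UMIs of all cells of a class. Since the tags lie at the 3′ end, a transcript gives about 1 UMI whatever its length, so levels were not divided by length. CT26 tumour cells had the highest summed level in both libraries, and neutrophils had by far the lowest. In the tumour cells the 32 genes summed to 5222 CPM (mock, 5186 to 5259) and 5233 CPM (PTIR1, 5184 to 5282). In neutrophils the sums were 1877 CPM (1748 to 2012) and 2206 CPM (2101 to 2314). Between these, macrophages stood at 5013 and 4681 CPM, dendritic cells at 4963 and 4524, NK cells at 4492 and 4542, T cells at 4318 and 4763, and B cells at 3112 and 3303. The mock intervals of macrophages and dendritic cells overlap, as do the PTIR1 intervals of NK and dendritic cells and those of T cells and macrophages. Fibroblasts, with enough cells in the PTIR1 library alone, had 4213 CPM, and mast cells or basophils, with enough in the mock library alone, had 4183 CPM.

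**Figure D1:**
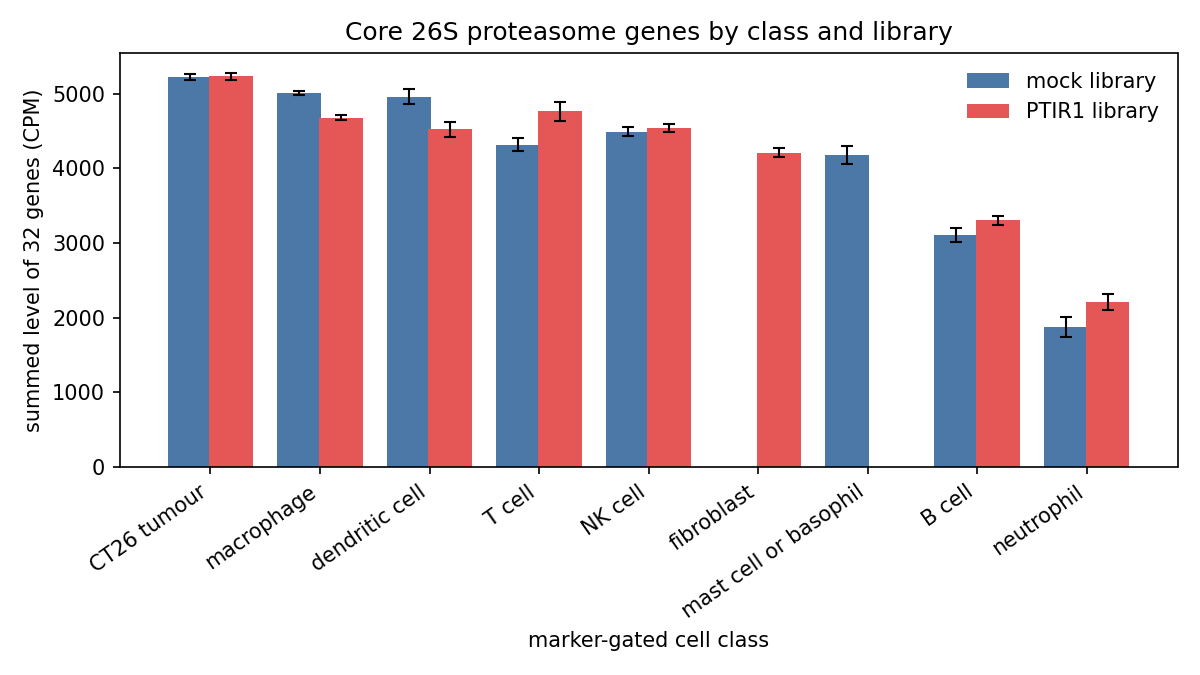
Summed level of the 32 genes in CPM (vertical axis, from 0) in each marker-gated class, mock and PTIR1 libraries side by side; whiskers are 95% Poisson intervals. Tumour cells lie at 5222 and 5233 CPM and neutrophils at 1877 and 2206 CPM, below every other class.

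Neutrophils are short-lived cells with little RNA, and their depth was low here, with medians of 2870 and 2818 UMIs per cell. Their summed level was also the lowest among equally deep cells: when each cell was thinned to 1000 UMIs, a UMI of any of the 32 genes was seen in 72.1% of mock neutrophils (62.8 to 80.2%, 111 cells) and 82.0% of PTIR1 neutrophils (75.6 to 87.4%, 178 cells). In the other 6 classes that share lay between 95.1% and 98.2%. Unthinned, it was 97.0% and 94.6% in neutrophils. Thinning left out 21 mock and 26 PTIR1 neutrophils that were shallower. No class here lacks proteasomes, so none shows the share that free RNA alone would give. Ribosomal protein genes took 6.85% and 9.38% of neutrophil UMIs and 30.7% and 33.4% of tumour cell UMIs. With mitochondrial, ribosomal protein and haemoglobin UMIs left out of the total, tumour cells remained highest (8057 and 8423 CPM) and neutrophils lowest (2041 and 2467 CPM).

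Of the single genes, 12 of 32 were highest in tumour cells in both libraries, 3 in macrophages (Psma6, Psmd2 and Psmd3), 2 in dendritic cells (Psma1 and Psma4), 1 in T cells (Psmd11) and 1 in NK cells (Psmd13). The 12 were Psma5, Psmb4, Psmc1, Psmc4, Psmc5, Psmc6, Psmd1, Psmd6, Psmd7, Psmd14, Psmd5 and Psmd10, of which 2 belong to the barrel. The remaining 13 had their highest class in different places in the 2 libraries. In neutrophils 30 of 32 genes were lowest in both libraries. How many of all measured genes were highest or lowest in each class was not counted. These counts therefore do not set the 32 genes apart from other genes.

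The second comparison asked in what proportion the subunits were present. Psma7, which encodes an alpha subunit, was the highest gene in 12 of the 14 pairs of class and library, and Psmb1, a beta subunit, was highest in B cells of both libraries. In tumour cells Psma7 had 583 and 590 CPM, against 317 CPM for Psma3 and 339 CPM for Psmb1, the genes next to it in the mock and PTIR1 libraries. In macrophages it had 508 and 452 CPM. In B cells Psmb1 had 283 and 331 CPM and Psma7 had 246 and 275 CPM. So the UMI levels of subunits that occur in equal number were not equal. The highest alpha ring gene exceeded the lowest by between 2.42-fold in mock B cells and 4.96-fold in PTIR1 tumour cells. Capture differs in efficiency between genes, so UMI levels do not give the true proportion of their transcripts. In tumour cells the lowest alpha ring gene was Psma1, at 125 and 119 CPM. Among the ATPase genes the range was narrower, from 1.66-fold to 2.63-fold, and Psmc1 was the lowest ATPase gene in 13 of 14 pairs. Among the lid genes Psmd3 was the lowest in 13 of 14.

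The median level of the cap genes was below that of the barrel genes in all 14 pairs. In mock tumour cells the median was 241 CPM for the 11 genes Psma1 to Psma7 and Psmb1 to Psmb4, 119 CPM for the 17 cap genes and 47.9 CPM for the 3 assembly chaperones. In mock NK cells these medians were 237, 95.2 and 33.7 CPM. The chaperones Psmd5, Psmd9 and Psmd10 were the 3 lowest genes other than Psma8 in 13 of 14 pairs. In the remaining pair, mock neutrophils, Psmd3 took the place of Psmd10. Psma7 exceeded the lowest chaperone by between 13.0-fold in mock tumour cells and 29.3-fold in mock neutrophils, leaving out B cells, where the highest gene was Psmb1. In mock neutrophils Psmd5 had 7.14 CPM and the 3 chaperones together 27 UMIs. That fold and the place of Psmd3 there thus rest on few counts. In mock dendritic cells the fold was 29.2.

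**Figure D2:**
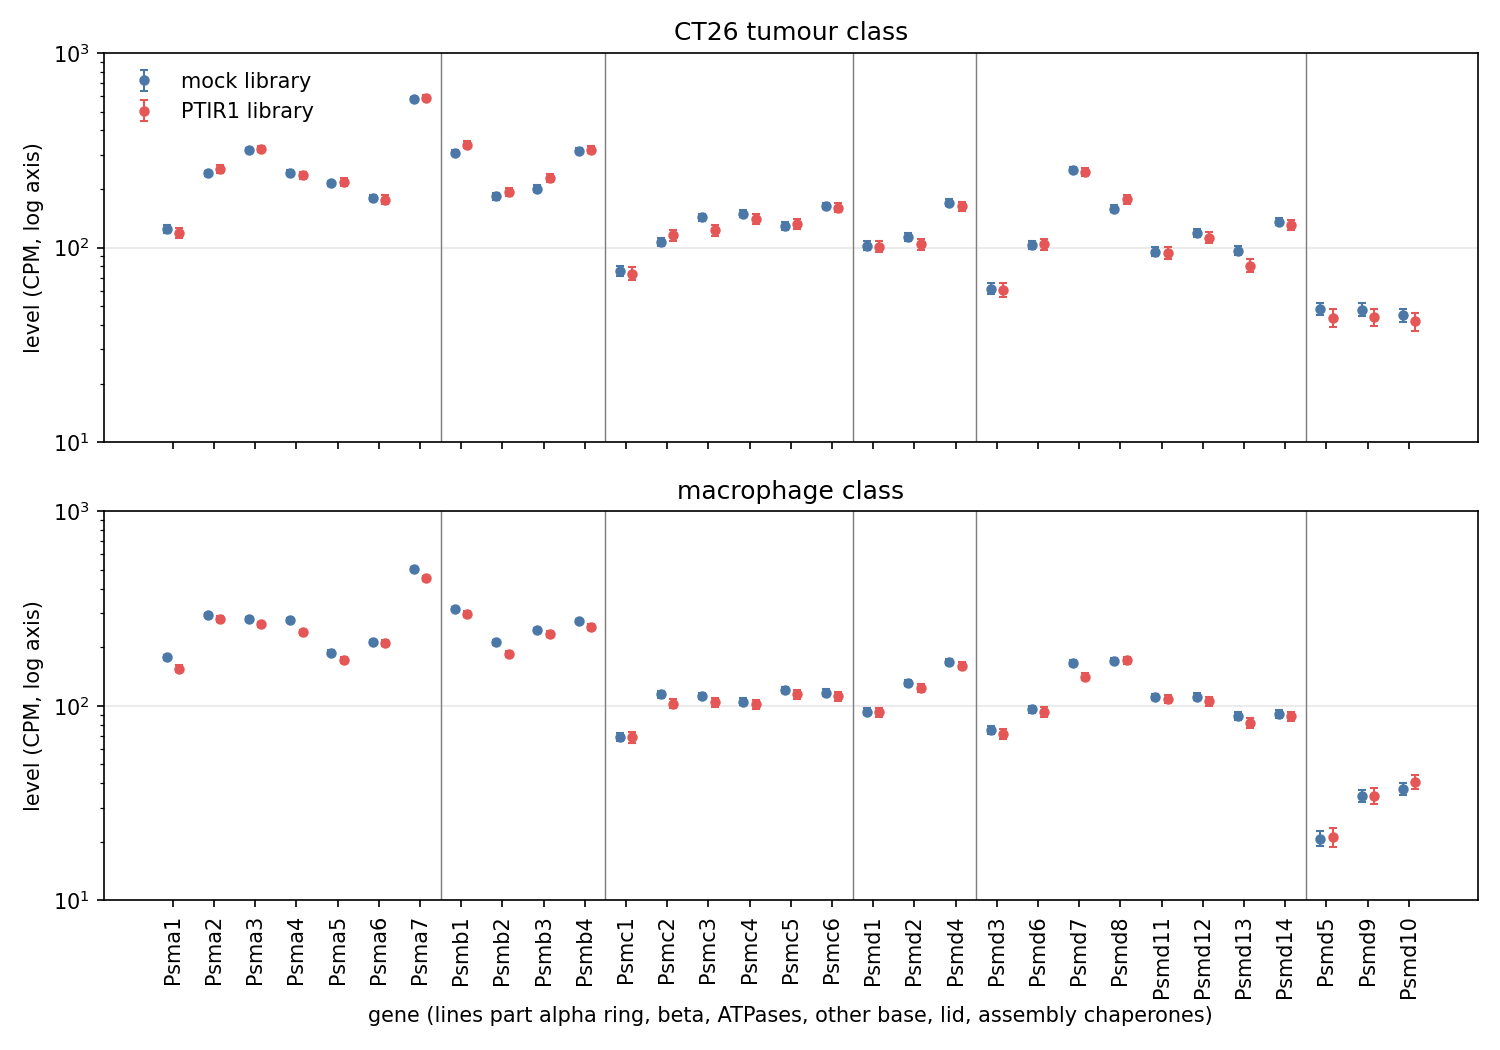
Level of each gene in CPM (vertical axis, log scale) in tumour cells and macrophages of both libraries, the genes ordered by their role in the particle, without Psma8; whiskers are 95% Poisson intervals. Psma7 stands above the other genes in both classes, and Psmd5, Psmd9 and Psmd10 below them, near 40 to 50 CPM in tumour cells.

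The order of the 32 genes was much the same in both libraries. Spearman's rho between the libraries was 0.995 in macrophages, 0.992 in tumour cells, 0.981 in NK cells and 0.980 in B cells. It was 0.896 in neutrophils, which had the fewest UMIs. Between classes of the same library it ran from 0.806 (tumour cells and neutrophils, mock) to 0.981 (T cells and macrophages, PTIR1). These are descriptions over 32 genes that share libraries and the same capture chemistry, which differs in efficiency between genes.

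Psma8 was at or near 0. It had no UMI in tumour, NK, T and neutrophil classes of either library, and in tumour cells a count of 0 leaves room for up to 0.247 CPM (mock) and 0.442 CPM (PTIR1) as the upper end of the Poisson interval. In dendritic cells it had 5 and 1 UMIs and in B cells 0 and 1. Macrophages gave 22 mock and 31 PTIR1 UMIs, that is 0.966 and 2.23 CPM.

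The third comparison asked whether the make-up of the particle's transcripts differed between tumour and immune cells. In each library the cap took a larger share of these UMIs in tumour cells than in the other classes compared, and only fibroblasts, counted in the PTIR1 library alone, stood higher. The 17 cap genes took 41.6% (41.3 to 42.0%) of the UMIs of the 32 genes in mock and 40.4% (40.0 to 40.9%) in PTIR1 tumour cells, and 41.1% (40.4 to 41.8%) in PTIR1 fibroblasts. In mock B cells the share was 40.3% (38.9 to 41.8%), an interval that overlaps that of the mock tumour cells, and in PTIR1 B cells 37.9%. Macrophages had 38.7% and 39.4%, and NK cells 37.4% and 36.2%. T cells had 37.0% and 38.2%. Neutrophils had 35.9% (32.6 to 39.4%) and 35.1% (32.8 to 37.4%). Dendritic cells had the lowest shares, with 35.2% (34.3 to 36.1%) and 34.3% (33.3 to 35.4%), which lie within the neutrophil intervals. This share does not depend on the other RNA of the cells, such as ribosomal protein UMIs.

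**Figure D3:**
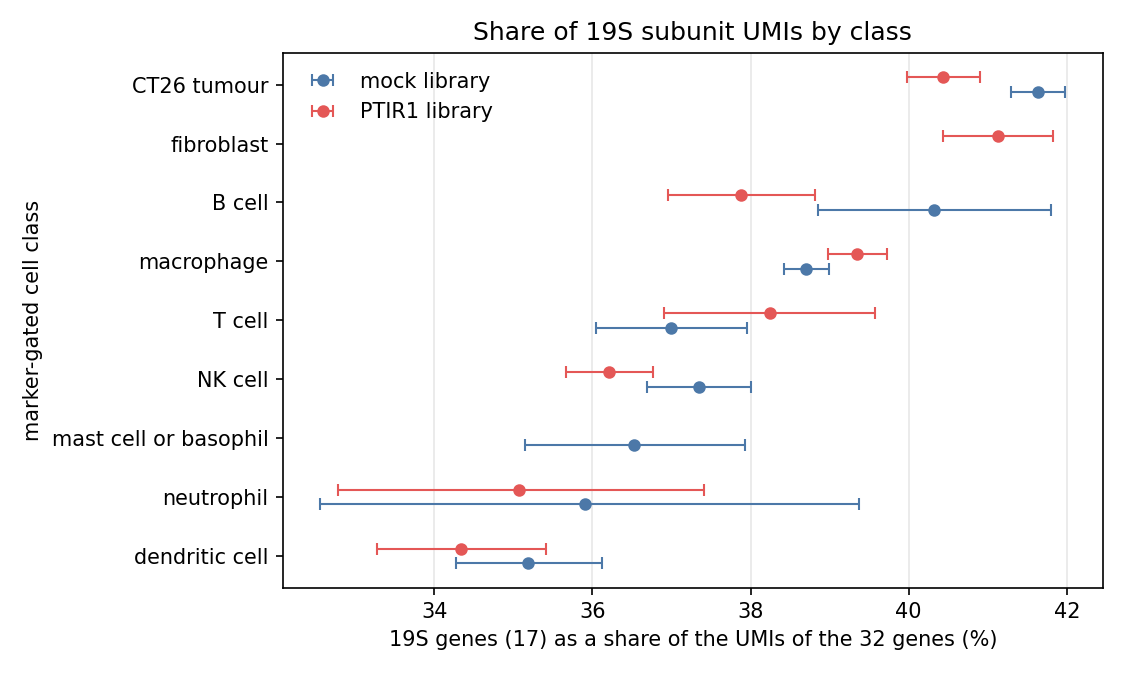
UMIs of the 17 cap (19S) genes as a percent of the UMIs of the 32 genes (horizontal axis, not starting at 0), by class and library; whiskers are 95% binomial intervals. Tumour cells, fibroblasts and mock B cells lie above 40% and dendritic cells near 35%.

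Single genes were counted as past the limit when they were at least 25% higher or at least 20% lower, and as measured with at least 50 UMIs in the classes or libraries compared. By this rule 6 of 31 measured genes were higher in tumour cells than in macrophages in both libraries and 1 was lower. Over all measured genes 35.2% were higher and 35.5% lower. The 6 were Psmc4 and Psmc6 of the ATPases, Psmd7 and Psmd14 of the lid, and the chaperones Psmd5 and Psmd9. Psmd14 encodes the enzyme that cuts ubiquitin chains off substrates, and Psmd7 its partner. Psmd7 had 251 CPM in mock tumour cells and 166 CPM in mock macrophages, a ratio of 1.51 (1.44 to 1.58). In the PTIR1 library it had 244 and 141 CPM, a ratio of 1.73 (1.62 to 1.84). Psmd5 was 2.33-fold (2.07 to 2.62) and 2.06-fold (1.76 to 2.41) higher in tumour cells, the widest ratio of the 31. The exception was Psma1, with 125 CPM in mock tumour cells and 178 CPM in mock macrophages (ratio 0.702, 0.664 to 0.742) and a ratio of 0.767 in the PTIR1 library.

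Against NK cells, 11 of 31 genes were higher in tumour cells in both libraries and 1 was lower, where 32.7% of all measured genes were higher and 36.0% lower. Psmd7 stood at 2.31-fold (2.11 to 2.54) and 2.30-fold (2.11 to 2.51), and the gene that was lower was again Psma1, with ratios of 0.779 and 0.797. Psmc6 was 1.72-fold and 1.70-fold higher. The others were Psma5, Psma7, Psmb4, Psmc1, Psmc4, Psmc5, Psmd1, Psmd14 and Psmd5. The macrophage and NK comparisons use the same tumour cells, so they are not independent. Both depend on the denominator: without mitochondrial, ribosomal protein and haemoglobin UMIs, 19 genes were higher in tumour cells than in macrophages and 19 higher than in NK cells, and Psma1 was no longer past the limit. Nor was it when each cell weighed the same.

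Between NK cells and B cells, both lymphocytes, more of these genes differed. In both libraries 20 of 31 genes were higher in NK cells and none was lower, against 32.1% and 18.1% of all measured genes. Without mitochondrial, ribosomal protein and haemoglobin UMIs the number higher was 13. Psma4, an alpha ring gene, had 236 CPM in mock NK cells and 118 CPM in mock B cells, a ratio of 2.01 (1.71 to 2.39), and in the PTIR1 library the ratio was 1.90 (1.70 to 2.13). Psmd6, a lid gene, had ratios of 2.15 (1.63 to 2.89) and 1.61 (1.34 to 1.93). Of the alpha ring genes all 7 were among the 20, as were Psmb2, Psmb3 and Psmb4. Psmb1 was not: its level in NK cells was 361 and 372 CPM, against 283 and 331 CPM in B cells. Over the 31 genes the median log2 ratio of NK over B cells was 0.54 (mock) and 0.45 (PTIR1), beside 0.15 and 0.18 over all measured genes.

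The fourth comparison asked whether the shared body of the proteasome differed between PTIR1 and mock tumours. In the tumour cells the summed level was the same within counting error, with a ratio of PTIR1 over mock of 1.002 (0.990 to 1.01). No gene was past the limit in either direction (0 of 31 measured lower and 0 higher), where 22.5% of all measured genes were lower and 9.78% higher. Among genes with at least 1017 UMIs, the count of the least abundant of the 31, the background was 15.2% lower and 3.84% higher. The median log2 ratio was -0.03 for the 31 genes and -0.09 over all measured genes. Setting the latter to 0 would place the summed level at a log2 ratio of 0.10.

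Barrel and cap differed slightly from each other in tumour cells. The 11 barrel genes summed to 2907 CPM (mock) and 2988 CPM (PTIR1), a ratio of 1.03 (1.01 to 1.04). The 17 cap genes summed to 2174 and 2116 CPM, a ratio of 0.973 (0.956 to 0.991). The sign of each depended on the scaling: the log2 ratio of the cap was -0.04, but 0.02 without mitochondrial, ribosomal protein and haemoglobin UMIs and 0.06 with the median of all genes set to 0, and that of the barrel was 0.04, but -0.03 with each cell weighing the same. Leaving UMIs out of the total and setting the median to 0 rescale barrel and cap alike, so their order could not change there. With each cell weighing the same, the log2 ratio was -0.03 for the barrel and -0.11 for the cap. Psmb3, a non-catalytic beta subunit, had 201 and 227 CPM (ratio 1.13, 1.07 to 1.20), and Psmb1 had 307 and 339 CPM (1.10, 1.05 to 1.16). Psmd8, a lid gene, went the same way, with 159 and 177 CPM (1.12, 1.04 to 1.19). Lower in the PTIR1 tumour cells were the lid gene Psmd13, with 96.5 and 80.7 CPM (0.836, 0.761 to 0.916), and the ATPase gene Psmc3, with 143 and 123 CPM (0.856, 0.794 to 0.923). Psmd2, which encodes a scaffold subunit of the base, had a ratio of 0.917 (0.844 to 0.996). So 3 of 31 intervals lay above 1 and 3 below, where among all genes with at least 1017 UMIs 18.2% lay above and 40.5% below. The other 25 measured genes had intervals that hold 1, among them Psma7 (ratio 1.01) and Psmd7 (0.972).

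The tumour cell value depended on which cells were weighed. When each cell weighed the same, the log2 ratio of the sum was -0.06, against 0.00 when UMIs were summed. The 150 mock and 89 PTIR1 cells with a UMI of Mki67, Top2a or Cdk1, markers of dividing cells, had sums of 5230 and 5322 CPM. The 13 and 43 cells without one had 5034 and 4725 CPM, a ratio of 0.939 (0.897 to 0.982). In these the barrel ratio was 0.929 (0.875 to 0.987) and the cap ratio 0.962 (0.897 to 1.03), so the barrel was not above the cap. Cells without such a UMI were shallower, with medians of 35600 and 28670 UMIs, so the split follows depth as well as division. Over single tumour cells the median was 51.0 (mock) and 48.5 (PTIR1) UMIs of these genes per 10000 UMIs, with 10th to 90th percentiles of 37.3 to 66.7 and 34.9 to 63.8. Macrophage markers in the tumour cells, with all 11 detected, summed to 55.8 and 31.9 CPM, and fibroblast markers, all 10 detected, to 852 and 1013 CPM; their part in these differences was not tested.

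**Figure D4:**
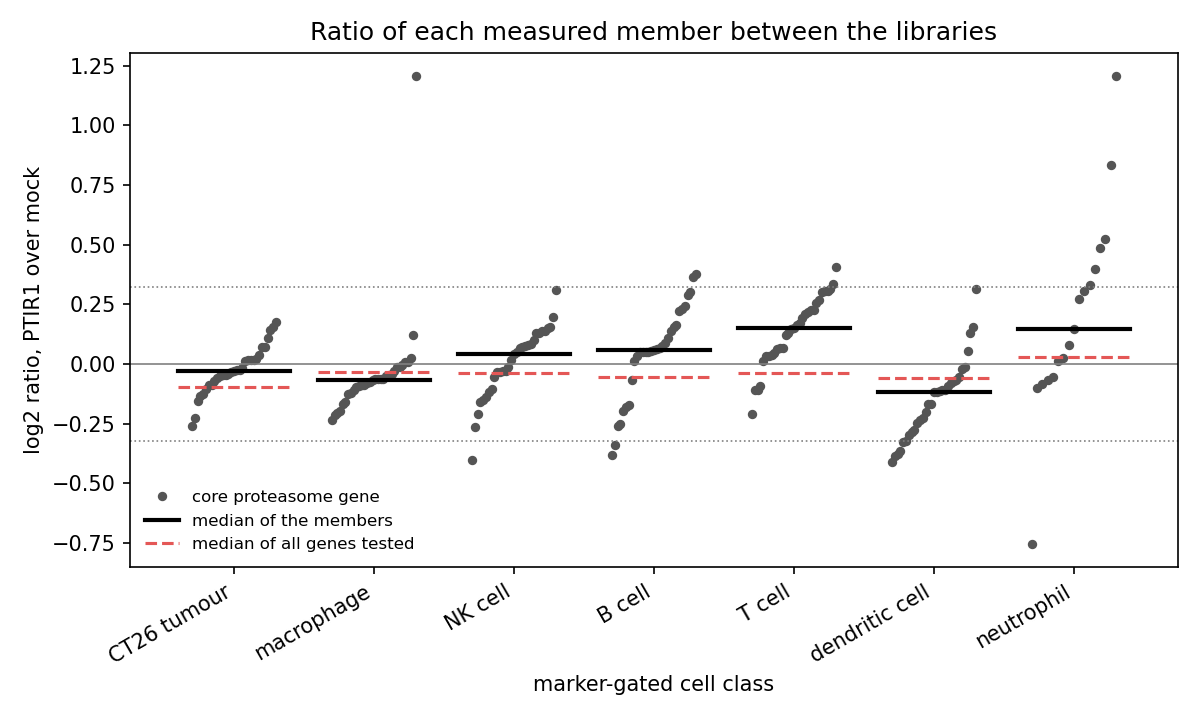
Log2 ratio of PTIR1 over mock (vertical axis) for each measured gene (points) in each class, with the limits of 25% higher and 20% lower dotted, the median of these genes as a black line and that of all measured genes as a dashed line. Tumour cell points lie within the limits, macrophage points mostly just below 0 apart from Psma8, and neutrophil points spread most widely.

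In macrophages the summed level was slightly lower in the PTIR1 library, at 4681 CPM against 5013 CPM, a ratio of 0.934 (0.925 to 0.943). The lower level was spread over many genes rather than marked in a few. None of the 32 measured genes was past the limit and lower and 1, Psma8, was higher, where 10.8% of all measured genes were lower and 10.5% higher. Among genes with at least 767 UMIs, the count of the least abundant member other than Psma8, these backgrounds were 4.93% and 5.45%. Ratios lay below 1 for 27 genes and the interval below 1 for 15. Among all genes with at least 767 UMIs these shares were 59.9% and 28.0%. Psmd7 had 166 and 141 CPM (0.851, 0.805 to 0.899), Psma4 276 and 238 CPM (0.862, 0.826 to 0.899) and Psmb2 212 and 184 CPM (0.868, 0.827 to 0.911). The gene with the highest level, Psma7, had a ratio of 0.889 (0.862 to 0.917). Barrel and cap were both lower, with ratios of 0.920 (0.908 to 0.931) and 0.949 (0.935 to 0.964), whereas the interval of the 3 chaperones holds 1 (1.04, 0.972 to 1.12). In the 398 mock and 198 PTIR1 macrophages with a UMI of Mki67, Top2a or Cdk1, however, the cap ratio was 1.01 (0.987 to 1.04) and the barrel ratio 0.931 (0.911 to 0.951). The median over the 32 genes was -0.07 on the log2 scale, and -0.03 over all measured genes.

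Psma8 in macrophages had a ratio of 2.31 (1.29 to 4.18) from 22 and 31 UMIs, and it was not counted without doublet removal or with a stricter gate. The macrophage sum was lower in the PTIR1 library both in cells with at least 5 Arg1 UMIs per 10000 (708 mock and 581 PTIR1 cells; 4734 and 4536 CPM) and in cells with fewer (723 and 300 cells; 5318 and 4999 CPM). The ratios were 0.958 (0.946 to 0.970) and 0.940 (0.925 to 0.955). Arg1, which encodes arginase, marks a state of tumour macrophages, and in both libraries cells with much of it had the lower proteasome level. Neutrophil markers in macrophages, all 9 detected, summed to 249 CPM (mock) and 580 CPM (PTIR1), and the share of the proteasome difference that goes with them was not tested.

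In NK cells the sums were 4492 and 4542 CPM, a ratio of 1.01 (0.994 to 1.03). One chaperone gene, Psmd5, was past the limit: it had 31.4 CPM (145 UMIs) in mock and 23.8 CPM (158 UMIs) in PTIR1 NK cells, a ratio of 0.758 (0.601 to 0.956). That was 1 of 31 genes lower and 0 higher, where 12.6% and 11.4% of all measured genes were, and 5.58% and 6.52% of those with at least 303 UMIs. Psmc3 (0.834, 0.746 to 0.932) and Psmd13 (0.864, 0.762 to 0.981) were lower within the limit, as was Psmd4 (0.895, 0.8095 to 0.991). That made 4 intervals below 1, where 16.5% of all genes with at least 303 UMIs had one. In tumour cells the 3 intervals below 1 were those of Psmc3, Psmd13 and Psmd2. Psmc3 and Psmd13, like 7 other members, overlap a gene on the opposite strand (Slc39a13 and Sirt3), and the strand setting of the counts is not given in the sources used here. Psmd5 was not counted as past the limit without doublet removal. Over the 31 genes the median log2 ratio was 0.04, and -0.04 over all measured genes. Macrophage markers in the NK class, all 11 detected, summed to 200 and 508 CPM.

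In B cells the sums were 3112 and 3303 CPM, a ratio of 1.06 (1.02 to 1.10), but this direction turned when each cell weighed the same (log2 ratio -0.03, against 0.09). Psmb4 had 144 and 186 CPM (ratio 1.29, 1.09 to 1.52) and Psmc1 34.6 and 45.0 CPM (1.30, 0.931 to 1.84). Psmc4 had 80.0 and 63.3 CPM (0.792, 0.625 to 1.01) and the chaperone Psmd10 34.6 and 26.6 CPM (0.769, 0.533 to 1.12). Those were the 2 of 31 genes higher and 2 lower, where the background was 13.9% higher and 21.6% lower, and 11.6% and 18.9% among genes with at least 87 UMIs. The intervals of 3 of these 4 genes hold 1, and both counts moved under most of the other settings tried.

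In T cells the sums were 4318 and 4763 CPM, a ratio of 1.10 (1.07 to 1.14), and 27 of 31 genes had ratios above 1, as did 46.3% of all genes with at least 79 UMIs. Psmd1 (56.5 and 74.9 CPM) and Psmc6 (90 and 114 CPM) were past the limit, with ratios of 1.32 (0.991 to 1.76) and 1.26 (1.002 to 1.59), and none was lower, where 15.2% of all measured genes were higher and 23.1% lower. Their median log2 ratio was 0.15, and -0.04 over all measured genes. The make-up of the class differed: 122 of 236 mock and 27 of 110 PTIR1 T cells were CD8 T cells, and NK markers summed to 1116 and 554 CPM. In the T cells that were not CD8 T cells (114 and 83) the sums were 4189 CPM (4044 to 4338) and 4769 CPM (4618 to 4925). The PTIR1 level was thus also the higher one among these cells. Macrophage markers, all 11 detected, also moved, with 653.8 and 1059 CPM in these cells and 764 and 942 CPM in all T cells, and their part in the difference was not tested.

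In dendritic cells, which are specialised in presenting peptides made by the proteasome, the sums were 4963 and 4524 CPM, a ratio of 0.912 (0.885 to 0.939). On the log2 scale that is -0.13, and -0.077 with the median of all genes set to 0. Here 6 of 31 genes were past the limit and lower and none was higher, against a background of 22.1% lower and 15.1% higher. The members had a median of 403 UMIs in this class and all measured genes 155. In tumour cells, macrophages, NK cells and B cells the share lower was smaller among genes with more UMIs. A background at like counts was not made for dendritic cells, so the members cannot be placed against it. Of the 6 genes, 5 belong to the cap. Psmd2 had 120 and 89.9 CPM (0.752, 0.611 to 0.923), Psmc6 99.4 and 76.5 CPM (0.770, 0.614 to 0.963) and Psmd7 125 and 97.5 CPM (0.778, 0.637 to 0.949). Psmd3 and Psmd6 had ratios of 0.765 and 0.7997 with intervals that hold 1, and the beta subunit gene Psmb3 a ratio of 0.7987 (0.694 to 0.919). Psma3 went the other way, with 302 and 375 CPM. This class joins conventional and mature dendritic cells, and markers of the mature kind summed to 1836 CPM (mock) and 3414 CPM (PTIR1).

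In neutrophils 17 of 32 genes were measured, with 54 to 264 UMIs each. The sums were 1877 and 2206 CPM, a ratio of 1.18 (1.08 to 1.28), and this direction turned with a stricter gate (log2 ratio -0.02, against 0.23) and was 0.099 at up to 20% mitochondrial UMIs. Past the limit were 6 genes higher and 1 lower, where 29.9% and 23.6% of all measured genes were. Psma6 had 19 and 79 UMIs (45.3 and 104 CPM), Psmb3 28 and 90 UMIs (66.7 and 119 CPM), and Psmb4 47 and 122 UMIs (112 and 161 CPM), and these 3 had intervals above 1, as did 17.9% of all genes with at least 54 UMIs. Psma2, Psmc6 and Psmd2 were higher and Psmd12 lower with intervals that hold 1. Macrophage markers in this class, all 11 detected, summed to 798 and 1168 CPM, and their part was not tested.

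Psmb3, Psmc6 and Psmd2 were therefore past the limit in opposite directions in different classes: lower in dendritic cells, and higher in neutrophils or, for Psmc6, in T cells and neutrophils. Psmc6 had 207 and 123 UMIs in T cells and 207 and 131 UMIs in dendritic cells, so each of these ratios rests on few counts. Whether the differences between classes exceed the spread between animals was not tested.

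The other genes of the pathway were taken from a list of 34 measured symbols: the catalytic subunits, activators, assembly factors, cap subunits with other names, ubiquitin genes, shuttle factors and transcriptional regulators. In the PTIR1 tumour cells 5 were lower past the limit and 1 higher, in macrophages 6 and 1, in NK cells 2 and 0, in B cells 2 and 1, in T cells 2 and 5, and in dendritic cells 8 and 3. Of 18 measured in neutrophils 6 were lower and 3 higher. These counts stand against the shares of all measured genes given above for each class. The 5 of 34 lower in tumour cells lie below the 22.5% of all genes with at least 50 UMIs. The 6 of 34 in macrophages lie above 10.8%, and the 8 of 34 in dendritic cells near 22.1%. Among genes with at least 1017 UMIs in tumour cells, however, the share lower was 15.2%, and with at least 767 in macrophages 4.93%. No background matched to the counts of the 34 genes was made, so these positions do not set them apart. Of the catalytic subunits, Psmb9 and Psmb8 were past the limit in tumour cells, unlike the shared subunits, whereas Psmb10 was within it. In tumour cells Psmb9 had 169.5 CPM (2529 UMIs) in mock and 64.1 CPM (535 UMIs) in PTIR1 cells, a ratio of 0.378 (0.344 to 0.415). Psmb8 had 187 and 103 CPM, a ratio of 0.548 (0.507 to 0.591), and Psmb10 108 and 89.2 CPM, a ratio of 0.827 (0.757 to 0.902). The constitutive counterparts were within the limit: Psmb5 had 301 and 310 CPM (1.03, 0.981 to 1.08), Psmb6 150 and 150 CPM (ratio interval 0.933 to 1.07), and Psmb7 166 and 155 CPM (0.934, 0.873 to 0.9998).

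**Figure D5:**
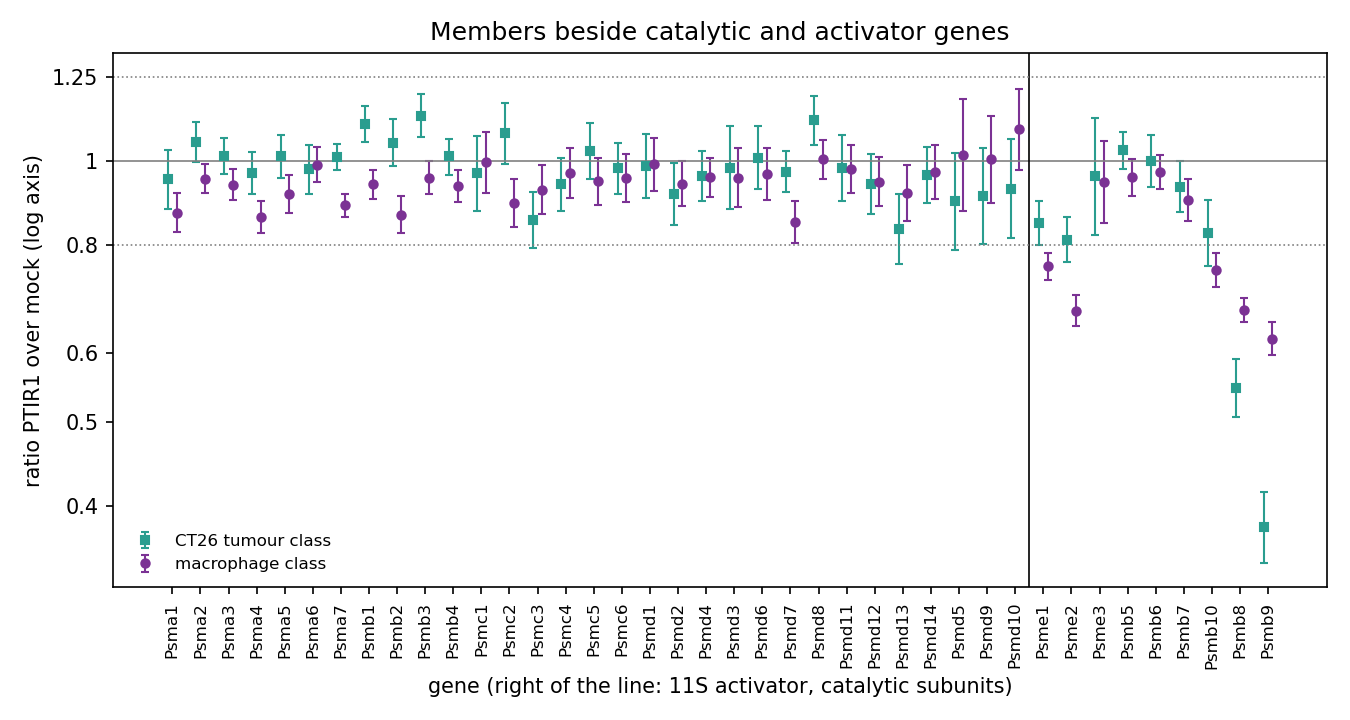
Ratio of PTIR1 over mock in tumour cells and macrophages (log axis) for the members other than Psma8 and, right of the line, for the 11S activator genes and the constitutive and immunoproteasome catalytic subunits; whiskers are 95% intervals and dotted lines the limits. Psmb9 and Psmb8 lie at 0.378 and 0.548 in tumour cells, outside the range of all the shared subunits.

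In macrophages the same order held. Psmb9 had 318 and 198 CPM (0.624, 0.597 to 0.652), Psmb8 616 and 415 CPM (0.673, 0.653 to 0.694) and Psmb10 266 and 199 CPM (0.749, 0.716 to 0.784). The 11S activator genes Psme1 and Psme2, which encode a cap that is itself induced by interferon, had ratios of 0.756 and 0.672 there, and 0.849 and 0.812 in tumour cells. The lowest ratio of any shared subunit was 0.851 in macrophages (Psmd7) and 0.836 in tumour cells (Psmd13). In NK cells Psmb8 and Psmb9 had ratios of 0.964 and 0.950, and in B cells 0.988 and 1.09.

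Among the other pathway genes past the limit in tumour cells were Ddi2, which encodes the protease that activates the Nfe2l1 product, with 31.98 and 19.9 CPM (0.622, 0.518 to 0.744), and Uchl5 (0.784), which encodes a deubiquitinase of the cap. Nfe2l1 itself had 57.9 and 58.7 CPM in tumour cells. The chaperone gene Psmg3 of the barrel was lower in macrophages, at 34.6 and 27.7 CPM. Ubqln2, a ubiquitin shuttle gene, and Ddi2 were lower in NK cells, with ratios of 0.763 and 0.789.

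In tumour cells and macrophages, the classes examined for this, cells with more barrel UMIs also had more cap UMIs. In tumour cells thinned to 20000 UMIs each, Pearson's r between the summed barrel and cap UMIs was 0.592 over 147 mock cells and 0.436 over 111 PTIR1 cells, leaving out 16 and 21 shallower cells. In macrophages thinned to 10000 UMIs it was 0.547 over 1049 mock and 0.502 over 632 PTIR1 cells. The cells of a class share a library and differ in their other RNA, to which both sums are relative, so these values describe the cells and carry no test. A single gene was seen in few cells at low depth: at 1000 UMIs per cell Psma7 had a UMI in 35.6% of tumour cells of either library, in 40.1% and 32.4% of macrophages and in 14.4% and 19.1% of neutrophils. Psmd5 had one in 2.45% and 4.55% of tumour cells. Without thinning, Psma7 was seen in 98.2% and 95.5% of tumour cells.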

How the data were processed

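The deposited matrices hold unnormalized UMI counts. Per the file headers, Cell Ranger 5.0.0 made them; mm10 and Seurat 3.2.3 are named in the submitters' processing notes. The annotation version and the strand setting were not given in the sources used here. Psma2 and Psmd12 overlap another counted gene on the same strand, and 9 of the 32 genes overlap 1 on the opposite strand.

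Barcodes under 200 genes or above 10% mitochondrial UMIs were dropped (1505 mock, 1439 PTIR1). The cells with the highest Scrublet scores, 0.8% per 1000 cells, were then removed in each library by the same rule (696 and 458). Cells were gated on 13 marker lists. The class score was the mean log level over its markers, divided by the median of the 100 highest cells. A cell needed 3 markers, a score of at least 0.35 and every other class at most 0.6 of its own. The conventional and mature dendritic cell lists were joined.

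UMIs were summed per class. A gene was measured with at least 50 UMIs over the classes or libraries compared, and counted as past the limit when at least 25% higher or 20% lower. Intervals at 95% are exact: conditional binomial for ratios, Poisson for levels and Clopper-Pearson for shares. Genes named were those past the limit, the highest and lowest, and the catalytic subunits; other members were named to describe a group after their values were seen. Some pathway genes within the counts are not reported here by name. The members and lists were chosen with earlier results of these data known. There were 11 alternative settings for the PTIR1 comparison. The interval code was tested on simulated counts. Software was scanpy 1.11.5, scipy 1.17.1, numpy 2.4.6, pandas 2.3.3 and matplotlib 3.10.9 under Python 3.11.15.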

Additional observations from a re-analysis of the deposited data

Results flagged for a closer look

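The summed level of the 32 genes moved in opposite directions in different classes of the same pair of libraries. The log2 ratio of PTIR1 over mock was 0.086 in B cells, 0.14 in T cells and 0.23 in neutrophils, and -0.10 in macrophages and -0.13 in dendritic cells, each with a counting interval that excludes 0. The difference between classes was not tested, since each class has 1 library per group. The values in B cells and neutrophils changed sign under another setting, given below.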

How the results depend on the processing

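No paired analysis was possible because each group has 1 library. Of 147 values under alternatives, 96 stayed within the counting interval or within 1.5 times the count, 49 moved and 2 changed sign. With each cell weighing the same, the log2 ratio of the sum was -0.025 in B cells (a change of sign), -0.064 in tumour cells and -0.0097 in NK cells, and the number of genes lower was 1 in tumour cells and 2 in NK cells, with 1 higher in NK cells and 0 higher in B cells. With a stricter gate the neutrophil log2 ratio was -0.023 (a change of sign) and that of tumour cells -0.032, 1 gene was lower in tumour cells, 1 in B cells, 0 were higher in macrophages and 1 in NK cells. With the median ratio of all genes set to 1, the sums were 0.097 in tumour cells, -0.068 in macrophages, 0.054 in NK cells, 0.14 in B cells and -0.077 in dendritic cells (against -0.13), with 1 gene higher in NK cells, and 1 lower and 4 higher in B cells. Without mitochondrial, ribosomal protein and haemoglobin UMIs the tumour sum was 0.064, with 1 gene lower and 4 higher in B cells. Genes higher in tumour cells than in macrophages then numbered 19 and lower 0, than in NK cells 19 and 0, and genes higher in NK than in B cells 13. With each cell weighing the same, 0 were lower in tumour cells than in macrophages and 0 than in NK cells. Dividing and other cells had sums of 0.025 and -0.092 in tumour cells and -0.051 and -0.12 in macrophages, and Arg1-rich macrophages -0.062. Without doublet removal 0 genes were higher in macrophages, 0 lower and 1 higher in NK cells, and 1 lower in B cells. At up to 20% mitochondrial UMIs the neutrophil sum was 0.099 (against 0.23), 1 gene was higher in NK cells, and 0 lower and 4 higher in B cells. At 2000 UMIs per cell 1 was lower in B cells. At 1.5-fold 0 were lower in NK cells, and 0 lower and 0 higher in B cells. At 200 UMIs per gene 0 were higher in macrophages, and 1 lower and 1 higher in B cells. The causes of these moves were not tested, except that fewer genes remain under the stricter count or fold. The alternatives for T cells, dendritic cells, neutrophils, barrel and cap, and differences between classes, and the backgrounds at higher UMI counts, were chosen after seeing the data. Depth limits neutrophils most, where 17 of 32 genes were measured.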
